A study of Rattus norvegicus with 40 samples.

Results

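Type I and type III collagen are the main fibrillar collagens of the connective tissue that wraps muscle fibres, bundles and whole muscles. Col1a1 and Col1a2 encode the chains that assemble into type I collagen, and Col3a1 encodes the chain of type III collagen. Fn1 encodes fibronectin, a matrix glycoprotein that binds collagens and cell surface integrins, and Sparc encodes a secreted protein that binds collagen and takes part in matrix assembly. In muscle these genes are known mostly from fibroblasts and their progenitors, and matrix deposition is a familiar feature of ageing muscle.

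The 5 genes were taken as the rows of the count table with the identifiers ENSRNOG00000003897 (Col1a1), ENSRNOG00000011292 (Col1a2), ENSRNOG00000003357 (Col3a1), ENSRNOG00000014288 (Fn1) and ENSRNOG00000012840 (Sparc), out of 32545 rows. The rule that chose them lists the identifiers and uses no measured value, though the choice was made with earlier results of these data known. The table itself does not pair identifiers with names. The libraries came from male Wistar rats, an outbred strain, with no treatment or allele given. 10 animals were 20 months old and 10 other animals were 22 months old, the ages at which the study follows the onset of sarcopenia, the wasting and weakening of muscle in old age. Each of the 20 animals gave a library of gastrocnemius, the hind-limb calf muscle, and a library of triceps, a fore-limb muscle, which made 4 groups of 10 and 40 libraries in all. Levels are given as CPM (counts relative to the library total, scaled by TMM, the trimmed mean of M values), and log2 values are of the same quantity. CPM is not corrected for gene length, so the levels of different genes are not ranked against each other. Whole muscle was sequenced, and fewer cells of a type and less RNA per cell cannot be told apart in such samples. Total counts per library ranged from 10983887 to 68580194.

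A promoter of 300 bases, 250 before and 50 after the start of the gene, was found in the RefSeq table (build GRCr8, which is not the build of the counts) for 2 of the 5 genes, Col1a2 and Sparc. Both are shown because they are the regulatory sequence at hand for matrix genes whose levels are described here. Capitals mark the motifs TATAAA (the letters of the TATA box) and CCAAT, searched on both strands. The Col1a2 promoter lies at chr4:33518307-33518606 on the plus strand and the Sparc promoter at chr10:40038767-40039066 on the minus strand.
Col1a2: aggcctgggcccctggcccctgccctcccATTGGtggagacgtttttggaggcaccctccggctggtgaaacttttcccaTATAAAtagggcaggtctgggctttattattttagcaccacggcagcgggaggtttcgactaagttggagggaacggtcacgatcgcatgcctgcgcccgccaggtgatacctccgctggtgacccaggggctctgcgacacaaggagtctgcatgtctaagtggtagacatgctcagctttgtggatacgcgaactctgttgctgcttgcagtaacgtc
Sparc: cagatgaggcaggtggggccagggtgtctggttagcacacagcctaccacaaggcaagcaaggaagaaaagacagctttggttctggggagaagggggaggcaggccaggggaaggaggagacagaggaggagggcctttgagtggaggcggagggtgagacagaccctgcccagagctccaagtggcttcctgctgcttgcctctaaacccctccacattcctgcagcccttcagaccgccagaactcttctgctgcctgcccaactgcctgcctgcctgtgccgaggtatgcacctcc

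The Col1a2 window held TATAAA, as 14.2% of the 33469 promoters of this length did, and ATTGG, the reverse complement of CCAAT, which 37.5% held on either strand. The Sparc window held neither, and the GC-box letters GGGCGG, held by 33.1% of all promoters, were in neither window. In the Col1a2 window TATAAA began 170 bases and ATTGG 221 bases before the start of the gene. A match describes these letters only.

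Col1a1, Col3a1, Fn1 and Sparc were well measured in every library, and none was called different between ages or muscles (edgeR, adjusted p under 0.01). Of all genes tested, 0% were called between ages in either muscle. Between muscles 3.76% were called at 20 months and 20.3% at 22 months. Animals of a group differed widely, and the highest library held up to 6.08 times the level of the lowest. From animal to animal the 4 genes were high or low together in gastrocnemius and, separately, in triceps, while no relation between the levels in both muscles of an animal passed its test. The row of Col1a2 was close to empty in all 40 libraries.

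Col1a1 ranged over the 10 gastrocnemius libraries at 20 months from 155 CPM (replicate 6) through a median of 356 to 940 CPM (replicate 9), and at 22 months from 182 (replicate 6) through 399 to 999 CPM (replicate 2). In triceps it ranged from 215 (replicate 3) through a median of 353 to 844 CPM (replicate 9) at 20 months, and from 250 (replicate 10) through 434 to 904 CPM (replicate 4) at 22 months. All 4 ranges overlapped over most of their length. The means were 384 ± 259 and 442 ± 260 CPM in gastrocnemius at 20 and 22 months, and 417 ± 205 and 495 ± 216 CPM in triceps (SD, n = 10 each).

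Col3a1 ranged in gastrocnemius from 444 (replicate 6) through a median of 667 to 1614 CPM (replicate 7) at 20 months, and from 422 (replicate 6) through 828 to 1769 CPM (replicate 2) at 22 months. In triceps its range was 377 (replicate 3) to 1265 CPM (replicate 9) around a median of 807 at 20 months, and 521 (replicate 10) to 1341 CPM (replicate 5) around a median of 765 at 22 months. The older triceps libraries fell into a lower run of 7 and an upper run of 3, replicates 4, 5 and 6, which lay at 1252, 1341 and 1192 CPM. The means were 798 ± 421 and 917 ± 428 CPM in gastrocnemius, and 762 ± 266 and 868 ± 285 CPM in triceps, at 20 and 22 months (SD, n = 10 each).

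Fn1 ranged in gastrocnemius from 178 (replicate 3) through a median of 388 to 651 CPM (replicate 5) at 20 months, and from 134 (replicate 6) through 422 to 786 CPM (replicate 2) at 22 months. In triceps the range was narrower, from 247 (replicate 10) through a median of 417 to 516 CPM (replicate 7) at 20 months, and from 361 (replicate 7) through 472 to 651 CPM (replicate 6) at 22 months. The means were 398 ± 181 and 464 ± 206 CPM in gastrocnemius, and 395 ± 93.1 and 487 ± 98.3 CPM in triceps (SD, n = 10 each).

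Sparc ranged in gastrocnemius from 340 (replicate 6) through a median of 444 to 884 CPM (replicate 7) at 20 months, and from 330 (replicate 6) through 534 to 860 CPM (replicate 2) at 22 months. In triceps it ranged from 294 (replicate 3) through 517 to 668 CPM (replicate 9), and from 376 (replicate 10) through 496 to 692 CPM (replicate 4). The means were 532 ± 188 and 541 ± 181 CPM in gastrocnemius, and 488 ± 107 and 509 ± 114 CPM in triceps, at 20 and 22 months (SD, n = 10 each).

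**Figure D1:**
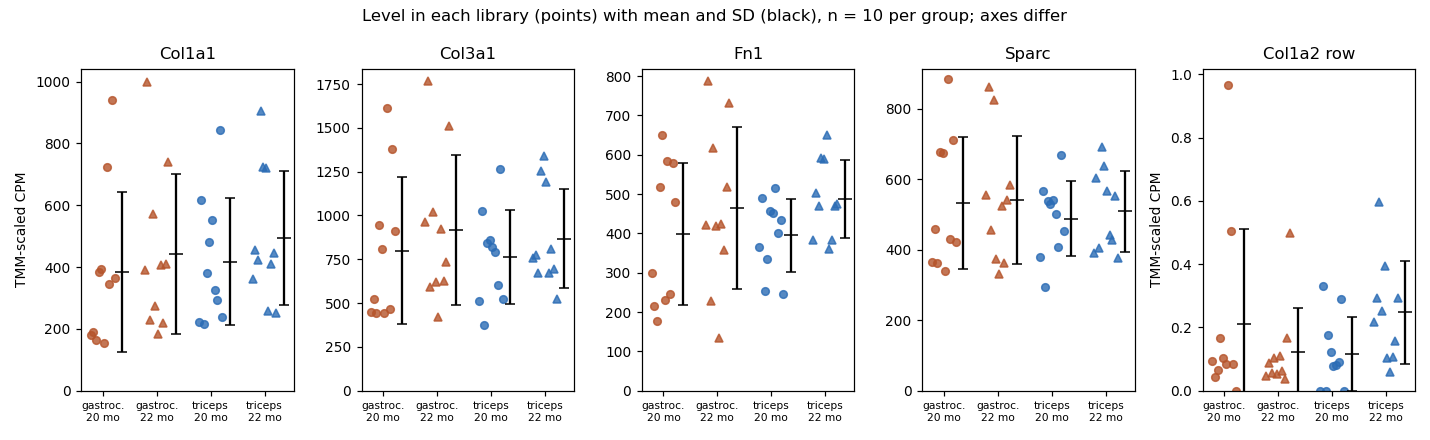
TMM-scaled CPM (vertical axes, linear and different for each gene) of the 5 genes in the 40 libraries; orange marks gastrocnemius, blue triceps, circles 20 months and triangles 22 months, with the mean and SD of each group of 10 in black. The groups overlap for each gene, the Fn1 points are more widely spread in gastrocnemius than in triceps, and no library of the Col1a2 row exceeds 0.966 CPM.

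Ordered by mean, Col1a1 and Fn1 were highest in triceps at 22 months, and Col3a1 and Sparc in gastrocnemius at 22 months. The lowest mean was in gastrocnemius at 20 months for Col1a1 and in triceps at 20 months for the other 3 genes. The gaps between neighbours in these orders were 3.04 to 69.8 CPM, each smaller than the SD of both neighbours. The 4 genes together took 0.218 ± 0.112% and 0.273 ± 0.149% of all counts in gastrocnemius at 20 and 22 months, and 0.193 ± 0.0644% and 0.230 ± 0.0715% in triceps (SD, n = 10 each).

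The row labelled Col1a2 went against what the name leads one to look for, since the usual form of type I collagen holds both chains and the Col1a1 row held at least 2460 counts in every library. Col1a2 held 0 to 20 counts per library, with a median of 2 and 162 counts in all 40 libraries together, against 408560 for Col1a1. In 4 libraries it was at 0, and 1 library reached 1 CPM before scaling. It was therefore filtered out of the tests, and its values say nothing firm about the gene. Reads shared with another gene model, the annotation and the counting mode were not tested.

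The age comparison asked whether matrix genes moved between 20 and 22 months. None of the 4 genes was called in either muscle by edgeR (adjusted p under 0.01), beside 0% of the 12659 genes tested in gastrocnemius and 0% of the 12345 in triceps. Unadjusted p-values under 0.05 were held by 10.3% and 8.78% of all genes in these comparisons, by 0 of the 4 genes in gastrocnemius and by 1 of the 4, Fn1, in triceps. DESeq2 and limma-voom also called 0 of the 4. The median log2 difference of the 4 genes was 0.21 in gastrocnemius and 0.22 in triceps, beside 0.01 over all genes in both. The 4 genes varied together among animals, so they are not 4 independent values. With 1 library left out, the lowest median was 0.02 in gastrocnemius (without replicate 2 of 22 months, 2 of 4 genes higher). In triceps it was 0.12 (without replicate 4 of 22 months, 4 of 4 higher).

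In gastrocnemius, Col1a1 differed by 0.22 ± 0.37 on the log2 scale (22 minus 20 months, SE, 95% interval -0.54 to 0.98, edgeR adjusted p = 0.838). Col3a1 differed by 0.21 ± 0.30 (-0.41 to 0.82, adjusted p = 0.807) and Fn1 by 0.23 ± 0.30 (-0.40 to 0.86, adjusted p = 0.795). For Sparc the difference was 0.03 ± 0.21 (-0.41 to 0.48, adjusted p = 0.963). These intervals leave room for a change of either sign. Of the 10 older animals, 6 lay above the median of the younger ones for Col1a1 and Col3a1, and 7 for Fn1 and Sparc.

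In triceps, Fn1 had the smallest p-value of the 4 genes. Its level was higher by 0.31 ± 0.14 at 22 months (0.02 to 0.60), with an unadjusted p of 0.0372 that did not hold after adjustment over all genes (edgeR adjusted p = 0.551). In 7 of 10 older animals Fn1 lay above the younger median, and in 3 of 10 above the highest younger library. The older animals above the younger median were 8 of 10 for Col1a1, 4 for Col3a1 and 5 for Sparc. With each library left out in turn, the Fn1 difference lay between 0.25 and 0.36 and its unadjusted p between 0.0149 and 0.0821. Col1a1 differed by 0.25 ± 0.26 (-0.29 to 0.80, adjusted p = 0.818), Col3a1 by 0.19 ± 0.20 (-0.22 to 0.61, adjusted p = 0.816) and Sparc by 0.07 ± 0.14 (-0.22 to 0.35, adjusted p = 0.917). Fn1 was also under an unadjusted 0.05 by DESeq2 (p = 0.0276, adjusted p = 0.479) and limma-voom (p = 0.0315, adjusted p = 0.537), and at an unadjusted edgeR p of 0.206 where all 40 libraries shared 1 model.

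Whether the age differences were unlike in both muscles was tested as an interaction over all 40 libraries, without a term for the animal. The age difference in gastrocnemius minus that in triceps was -0.04 ± 0.46 for Col1a1, 0.01 ± 0.36 for Col3a1, -0.08 ± 0.33 for Fn1 and -0.04 ± 0.25 for Sparc (edgeR adjusted p = 0.999 for each). The intervals ran from -0.98 to 0.89 for Col1a1 and from -0.55 to 0.48 for Sparc. No gene of the 12980 tested was called (0%), and 389 had an unadjusted p under 0.05.

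Gastrocnemius and triceps were then compared. Of 12426 genes tested at 20 months 3.76% were called, and of 12565 at 22 months 20.3%. None of the 4 genes was called at either age by edgeR, DESeq2 or limma-voom, and 0 of the 4 had an unadjusted p under 0.05, beside 24.9% and 43.8% of all genes. At 20 months Col1a1 differed by -0.10 ± 0.33 (gastrocnemius minus triceps, -0.79 to 0.59, edgeR adjusted p = 0.889), Col3a1 by 0.09 ± 0.26 (adjusted p = 0.879), Fn1 by 0.03 ± 0.23 (adjusted p = 0.959) and Sparc by 0.14 ± 0.18 (adjusted p = 0.676). At 22 months the differences were -0.14 ± 0.30 for Col1a1 (-0.76 to 0.47, adjusted p = 0.744), 0.10 ± 0.23 for Col3a1 (adjusted p = 0.784), -0.06 ± 0.23 for Fn1 (adjusted p = 0.873) and 0.10 ± 0.17 for Sparc (adjusted p = 0.677). The median of the 4 genes was 0.06 at 20 months and 0.02 at 22 months, beside 0.00 and 0.01 over all genes.

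The muscles of single animals differed in both directions. For each of the 4 genes and at each age, 4 to 6 of the 10 animals had the higher level in gastrocnemius. At 22 months the Col1a1 difference of an animal ran from -1.98 (replicate 6) to 1.56 on the log2 scale (replicate 10), and that of Fn1 from -2.28 (replicate 6) to 0.65 (replicate 2). With scaling by library totals in place of TMM, the median of all genes was 0.14 for age in gastrocnemius and 0.11 and 0.20 for muscle at 20 and 22 months (0.01, 0.00 and 0.01 with TMM). Under it the 4 genes had a median of 0.37 for age in gastrocnemius, Col3a1 and Sparc differed by 0.32 each between muscles at 22 months, and the differences of Col1a1 at both ages and of Fn1 at 22 months turned positive, with no gene of the 4 called.

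**Figure D2:**
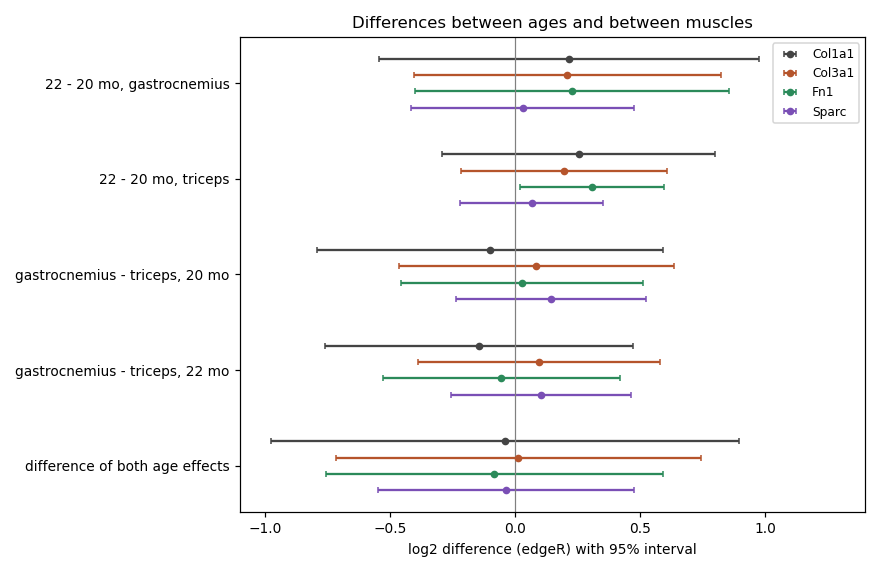
Log2 differences fitted with edgeR (horizontal axis) with their 95% intervals for 4 genes in 5 comparisons (rows), the last being the age difference in gastrocnemius minus that in triceps. The intervals include 0 except that of Fn1 for age in triceps, which runs from 0.02 to 0.60 before any adjustment.

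The spread between animals was wider than that of the median gene for all 4 genes, most so for Col1a1. The coefficient of variation (CV, the SD over the mean CPM in a group) of Col1a1 was 67.6% and 58.9% in gastrocnemius at 20 and 22 months and 49.2% and 43.8% in triceps, above the CV of 97.6 to 98.8% of the genes that averaged 5 CPM or more in the same group. Col3a1 had CVs of 52.7%, 46.6%, 34.9% and 32.8% in the same order, Fn1 45.5%, 44.5%, 23.6% and 20.2%, and Sparc 35.3%, 33.6%, 21.9% and 22.5%. Col3a1 exceeded the CV of 94.0 to 97.3% of these genes, while Fn1 exceeded 96.1% and 96.2% in gastrocnemius and 81.1% and 77.9% in triceps, and Sparc 91.7% and 90.7% in gastrocnemius and 76.4% and 84.4% in triceps. The median gene had a CV of 14.4 to 15.8% in these groups. No difference between ages in the spread on the log2 scale passed the test (permutation tests of the mean absolute deviation from the group median, 10 tests with the Col1a2 row included, adjusted p = 0.740 for each).

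Between muscles, the spread of Fn1 was wider in gastrocnemius in these animals, by a test chosen after the data were seen. The mean absolute deviation from the group median was 0.59 on the log2 scale in gastrocnemius and 0.25 in triceps over the 20 animals, and the deviation was larger in gastrocnemius in 15 of 20 animals (two-sided permutation test swapping the muscles of an animal, p = 0.00477, adjusted over the 4 genes 0.0191). The adjusted p ranged from 0.00904 to 0.120 when each animal was left out in turn. It rose above 0.05, and so missed the threshold, when any of 6 animals of 20 months was left out (replicates 1, 2, 3, 4, 6 and 8). The deviations of Col3a1 were 0.56 and 0.37 (adjusted p = 0.134), those of Col1a1 0.66 and 0.51 (adjusted p = 0.217) and those of Sparc 0.38 and 0.27 (adjusted p = 0.217). Over 9753 genes 56.6% were wider in gastrocnemius, and the Fn1 difference exceeded that of 99.3% of them.

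Several libraries were high or low for all 4 genes. In gastrocnemius at 22 months replicate 2 ranked first of 10 and replicate 6 last for each of them, and replicates 4 and 10 were in the first 3 ranks throughout. In gastrocnemius at 20 months replicates 7 and 9 were in the first 3 ranks and replicates 3 and 6 in the last 3 for each gene. In triceps replicate 2 at 20 months and replicates 4 and 5 at 22 months were in the first 3 ranks, and replicate 3 at 20 months in the last 3, for all 4 genes. Fn1 stood apart in other triceps libraries: for Col1a1, Col3a1, Fn1 and Sparc, replicate 7 at 20 months ranked 6, 6, 1 and 6, replicate 4 at 20 months 5, 4, 8 and 4, and replicate 10 at 22 months 10, 10, 5 and 10.

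Across the 20 animals, Col1a1 and Col3a1 were the most closely correlated pair in both muscles. Their log2 CPM correlated with Pearson r = 0.941 and Spearman rho = 0.926 in gastrocnemius, and with r = 0.933 and rho = 0.913 in triceps (permutation p = 1e-05 for each, the smallest that 100000 resamples can give, adjusted p = 2.86e-05 over 20 relations). Within ages r was 0.916 and 0.969 in gastrocnemius and 0.938 and 0.922 in triceps, at 20 and 22 months. Without the 2 animals farthest from the median it was 0.923 in gastrocnemius and 0.913 in triceps.

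By Pearson r the least close pair was Fn1 and Sparc. It had r = 0.798 and rho = 0.832 in gastrocnemius (permutation p = 4e-05, adjusted 8.89e-05, and adjusted 4.44e-05 for rho), and r = 0.639 and rho = 0.577 in triceps (permutation p = 0.00243, adjusted 0.00391, and adjusted 0.0131 for rho). Without 2 animals r was 0.760 and 0.566, and within ages it was 0.629 to 0.830 in the groups of 10. The 4 other pairs had r between 0.857 and 0.878 in gastrocnemius and between 0.725 and 0.877 in triceps, and each passed the adjusted threshold of 0.05 by both coefficients. The lowest rho of all 6 pairs was 0.556, of Col3a1 and Fn1 in triceps (adjusted p = 0.0176). No relation of the 5 rows with library depth passed in either muscle (10 relations, r from -0.33 to 0.23, permutation tests, adjusted p of 0.679 or more).

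**Figure D3:**
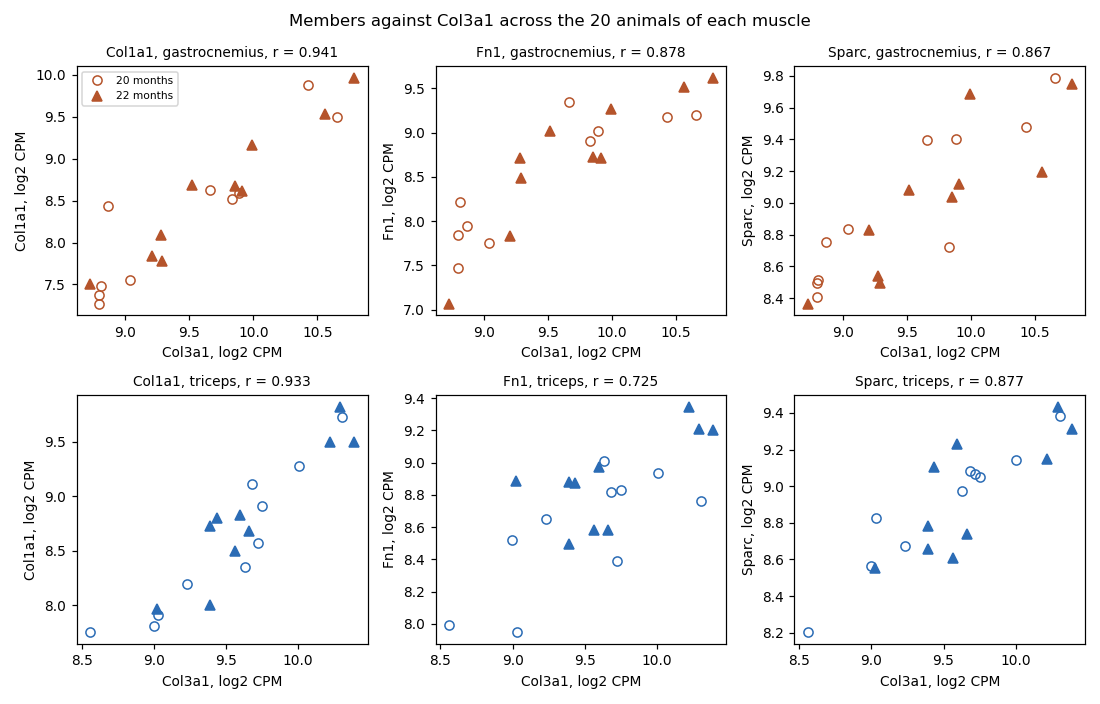
Log2 CPM of Col1a1, Fn1 and Sparc (vertical axes) against Col3a1 (horizontal axis) over 20 animals, in gastrocnemius (upper row) and triceps (lower row), with open circles for 20 and filled triangles for 22 months. Points of both ages follow the same line for Col1a1, with r of 0.941 and 0.933, and scatter most for Fn1 in triceps, with r of 0.725.

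The Col1a2 row, of few counts, moved with the others less evenly. Its r with them was 0.234 to 0.412 in gastrocnemius, where no relation passed (adjusted p of 0.0821 or more), and 0.459 to 0.632 in triceps. In triceps 3 of its 4 relations passed for Pearson r. There r was 0.662 to 0.915 at 20 months alone and 0.00329 to 0.327 at 22 months alone. At these counts a correlation is no sign of the gene's own level.

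Whether the level in one muscle of an animal went with the level in the other was tested next. Over 20 animals r between gastrocnemius and triceps was 0.0931 for Col1a1 (rho 0.135), 0.120 for Col3a1 (rho 0.104), 0.0684 for Fn1 (rho 0.143) and 0.405 for Sparc (rho 0.286). None passed (5 relations with the Col1a2 row included, permutation p = 0.0762 for Sparc, adjusted 0.381, and adjusted 0.946 for the other 3). Without the 2 farthest animals r was -0.117, 0.138, 0.128 and 0.376. At 20 months r was 0.187 to 0.572 over the 4 genes, and at 22 months -0.454 to 0.220, with 10 animals each and no p under 0.05. The difference between these correlations and those within a muscle was not tested.

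Some animals were at opposite ends in both muscles and others at the same end. The animal of gastrocnemius replicate 6 at 22 months, last of 10 for all 4 genes there, ranked 3, 3, 1 and 4 in triceps for Col1a1, Col3a1, Fn1 and Sparc. The animal of replicate 10 at 22 months ranked 2, 2, 2 and 3 in gastrocnemius and 10, 10, 5 and 10 in triceps. By contrast, replicate 9 at 20 months was in the first 3 ranks in both muscles for Col1a1, Col3a1 and Sparc, and replicate 3 at 20 months was in the last 3 in both muscles for all 4 genes.

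**Figure D4:**
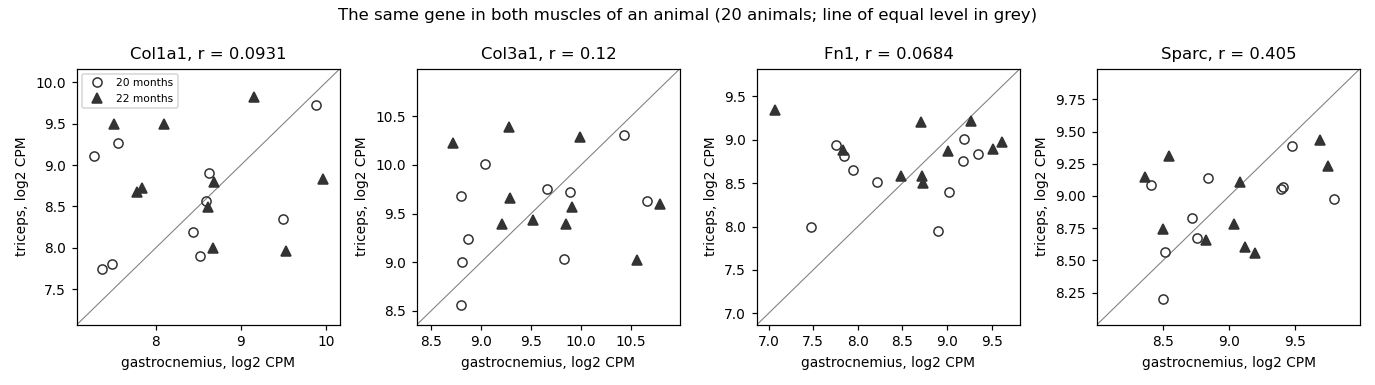
Log2 CPM of 4 genes in triceps (vertical axis) against gastrocnemius (horizontal axis) of the same animal, 20 animals, with open circles for 20 and filled triangles for 22 months and a grey line of equal level. The points lie on both sides of the line, with r from 0.0684 for Fn1 to 0.405 for Sparc.

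With group means removed, the genes most like each other across the 40 libraries were again the collagens. Of 9752 genes that averaged 5 CPM or more, Col3a1 had the highest r with Col1a1 (0.94), and Col1a1 the highest with Col3a1. Sparc was the fourth most like Col1a1 and the third most like Col3a1, while Fn1 was at rank 24 and rank 15. For Fn1 the other members were at ranks 56 to 153. The gene with the highest mean r over the 5 rows was ENSRNOG00000016695 (mean r 0.775), with r of 0.91 to Col1a1, 0.89 to Col3a1, 0.83 to Fn1 and 0.86 to Sparc, and the next was ENSRNOG00000026604 (mean r 0.769). Their r to the near-empty Col1a2 row, which enters that mean, was 0.38 and 0.47. Over the 4 measured genes alone their mean r was 0.874 and 0.844, at ranks 1 and 4. The points share library, animal and depth, and these values are a description.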

How the data were processed

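The authors deposited whole-number read counts per Ensembl gene, not normalized, in 1 table of 32545 rows and 40 columns, each of which matched the animal number and letter in the title of 1 library. The submitters' processing notes name CASAVA 1.8, STAR 2.3.0e, HTSeq and Rnor_6.0, and neither annotation release nor counting mode was stated. Per its methods, the study used unstranded paired-end libraries and took its own rat values from kallisto, so values can differ, and overlapping genes cannot be told apart by strand.

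The members and lists were chosen with earlier results of these data known. Symbols of the 5 members came with the list of identifiers. No table at hand pairs Ensembl identifiers with symbols, so the related gene lists and cell type markers, including those of the labelled tissue, were not analysed here, and likeness was named by identifier for the first 2 genes by mean r.

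The fits used edgeR 4.0.16 in R 4.3.3. A gene was kept if at least 10 libraries reached 1 CPM, libraries were scaled by TMM, and quasi-likelihood F-tests (two-sided) were adjusted by the Benjamini-Hochberg method over all genes tested, with calls at an adjusted p under 0.01 as in the study. Each age or muscle comparison used its own 20 libraries and the interaction used all 40. The main fits held no term for the animal, so both muscles of an animal entered as independent libraries. DESeq2 1.42.0, limma-voom 3.58.1, other scalings and filters, and leaving out each library or animal were alternatives. Log2 CPM used a prior count of 2. Correlations and spreads were tested by permutation (two-sided, 100000 resamples, Python 3.11.15, numpy 2.4.6, scipy 1.17.1) and adjusted within each family. The spread between muscles and the relation to PC1 were added after the data were seen. The edgeR test was checked on simulated data.

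The muscles were paired by the animal number in the labels. Over the genes tested, the median correlation of deviations from the group mean was 0.158 for the muscles of 1 animal and -0.0324 for those of different animals. Libraries of the same muscle and replicate number at both ages, from different animals, had a median of 0.0948. For unlike numbers it was -0.00766. Whether the 0.158 goes with the animal or with the number was not tested. For 9 of the 20 animals the triceps library closest to the gastrocnemius library, among those of the same age, was the animal's own. Within groups the lowest chi-square per gene among 180 library pairs was 12.4, more than sampling noise. The labels give no batch or date. Counts of 2460 or more per library for the 4 tested members make counting error small beside the spread between animals.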

Additional observations from a re-analysis of the deposited data

Results flagged for a closer look

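2 of 24 sets of 10 libraries held a library far from the others by Dixon's criterion, and both were sets of the near-empty Col1a2 row. Chance flags about 1 in 20 sets of normally distributed values, a rate that need not hold for counts this low. In gastrocnemius at 20 months replicate 7 lay at 0.966 CPM (20 counts), with the others at 0 to 0.506 CPM. In gastrocnemius at 22 months replicate 10 lay at 0.499 CPM (20 counts), with the others at 0.0360 to 0.166 CPM. Both libraries were also in the first 3 ranks of their group for Col1a1, Col3a1, Fn1 and Sparc.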

How the results depend on the processing

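None of the 4 tested genes was called in any of the 5 comparisons under any alternative tried. The alternatives included DESeq2, limma-voom and the fit with the animal or number as replicate block. For age and for the interaction this has little weight, since at most 1 gene of all tested was called (DESeq2, age in gastrocnemius). Between muscles more genes were called. In the younger animals the lowest share of all genes, without replicate 3 of 20 months, was 1.67%. The highest, with an adjusted p under 0.05, was 9.68%. The older animals had their lowest share, 11.3%, with every gene with a count, and their highest, 33.9%, with an adjusted p under 0.05. The animals pair the muscles: with the replicate block the muscle difference at 20 months was -0.0041 for Col3a1 and -0.085 for Fn1, both turned from positive, and 0 members were called. Replicate numbers at both ages name different animals (median r of deviations 0.0948, own number closest in 5 of 20), and the paired fit on them also called 0. With limma-voom Fn1 at 20 months was -0.071. With library totals, the muscle difference of Col1a1 was 0.016 at 20 and 0.10 at 22 months and that of Fn1 0.17 at 22 months, the interaction was 0.083 for Col1a1, 0.028 for Fn1 and 0.059 for Sparc, and the difference in spread of Sparc between ages in gastrocnemius was 0.0054. On PC1 in triceps, r was 0.11 for Col3a1, 0.39 for Fn1 and 0.32 for Sparc with totals, and 0.34 for Fn1 and 0.077 for Sparc with unit variance. The cause was not tested.

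No difference was called with 1 library (age) or 1 animal (muscle, interaction) left out, and some signs turned. Age in gastrocnemius ran from -0.0058 to 0.47 for Col1a1, 0.046 to 0.39 for Col3a1, 0.11 to 0.34 for Fn1 and -0.070 to 0.15 for Sparc, each lowest without replicate 2 at 22 months. Age in triceps ran from 0.11 to 0.42 for Col1a1, 0.10 to 0.30 for Col3a1 and 0.0041 to 0.12 for Sparc. Muscle at 20 months ran from -0.28 to 0.066 for Col1a1, -0.073 to 0.21 for Col3a1 and -0.061 to 0.15 for Fn1 and 0.049 to 0.22 for Sparc, and at 22 months from -0.38 to 0.046, -0.084 to 0.26, -0.17 to 0.13 and 0.033 to 0.21. The interaction ran from -0.28 to 0.14, -0.17 to 0.18, -0.20 to 0.093 and -0.11 to 0.070 for Col1a1, Col3a1, Fn1 and Sparc. The number of genes with a spread that differed between muscles ran from 0 to 1. The Col1a2 row held at most 20 counts in a library, which limits the precision of its values.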

Other observations

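In gastrocnemius the 4 abundant genes moved with the main axis of variation among all other genes. On PC1 of the 20 gastrocnemius libraries, which held 32.6% of the variance with the members left out and was oriented so that its mean was higher at 22 months, Pearson r was 0.61 for Col1a1, 0.66 for Col3a1, 0.68 for Fn1 and 0.80 for Sparc, and Spearman rho was 0.63, 0.69, 0.68 and 0.72 (permutation tests chosen after seeing the data, adjusted p over 8 relations 0.0085, 0.00477, 0.00456 and 0.0004, and for rho 0.00696 for Col1a1 and 0.00347 for the other 3). Without the 2 farthest animals r was 0.50, 0.60, 0.61 and 0.71. The r within ages lay between 0.40 and 0.74 at 20 months and between 0.72 and 0.91 at 22 months. Such values were common: the r of Col1a1 exceeded in size that of 65.5% of genes, and that of Sparc 88.1%. In triceps PC1 held 23.1% of the variance. It was oriented not by age but so that the weights of the genes correlated positively with those in gastrocnemius. In triceps r was -0.36, -0.23, -0.02 and -0.05, and none passed (adjusted p of 0.199 or more, and 0.337 or more for rho).

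The log2 ratio of Col1a1 to Col3a1 counts was -1.15 ± 0.38 and -1.13 ± 0.24 in gastrocnemius at 20 and 22 months, and -0.93 ± 0.26 and -0.87 ± 0.27 in triceps (SD, n = 10 each). It is given as a description, not corrected for gene length and without a test.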
